A study of Mus musculus with 9 samples.

Results

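Integrins are the adhesion receptors that hold cells to each other and to the matrix, and laminins are the trimeric glycoproteins of basement membranes that several integrins bind. The genes described here were chosen by their symbols alone, as those that begin with Itga, Itgb, Lama, Lamb or Lamc followed by a chain number or letter. The rule found 28 genes, read by 43 probes, among the 9991 genes and 14264 probes that could be named. They comprised 6 leukocyte integrins, 12 matrix integrins, 9 laminin chains and Itgb1bp1, an integrin-binding protein whose symbol the rule also matched. Of these, 27 genes and 36 probes were above background on at least 3 of the 9 arrays and were tested. The remaining gene, Itga2b, the platelet integrin chain, was not above background on any array.

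Whole epididymal WAT of male C57BL/6J mice, obtained at 4 weeks of age and then acclimatised, was profiled on Illumina bead arrays after 16 weeks on 3 diets. The LU group received the high-fat diet with 0.005% (w/w) luteolin, a plant flavonoid. The HFD group received that diet alone, which the labels give as 20% fat and 1% cholesterol, and the ND group received the normal diet. Each group had 3 arrays, and the labels give 10 mice a group, whereas the methods state other figures for the mice and the fat content and describe the RNA as pooled. The number of mice in a pool is not given in the sources used here, so p-values reflect only how far these 9 RNA samples spread. The strain field of the labels reads C56BL/6J, and luteolin was given only on top of the high-fat diet.

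Signals are quantile-normalized log2 values, on which 1 unit is a doubling, and the dimmest detected signal lay between 7.79 and 7.83 on the 9 arrays. Between 42.2% and 43.8% of probes were detected per array. The median raw signal was 193.5 to 197.3 on LU arrays, 209.4 to 215.8 on HFD arrays and 193.7 to 206.9 on ND arrays, so LU and HFD arrays did not overlap before normalization. Adipocyte markers were present at high level, with a summed signal of 238595 to 244144 on LU arrays, 221774 to 235223 on HFD arrays and 222464 to 239277 on ND arrays. The 3 measured markers of epididymal duct epithelium passed no test in limma at an adjusted or an unadjusted p under 0.05. Their summed signal was 653 to 705 on LU arrays, 648 to 1134 on HFD arrays and 715 to 780 on ND arrays. A test between groups does not show whether duct tissue was carried over on a single array. Lcn9 and Rnase10, also listed as duct markers, were below the filter.

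Gene names were available only for probes in a smaller table that the authors had normalized. It includes 98.1% of the 2262 probes with group means over 0.5 apart but 12.5% of the 20570 with means within 0.1. Genes that can be named were thus already enriched for differences between the groups, and the counts of integrins and laminins are set beside the share of the 8699 named genes tested that passed in the same comparison. Counts of cell type markers are to be read against the same shares. Other integrin and laminin genes of the array, such as Itgal and Itga4, were not analysed here.

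Every integrin is a pair of one α and one β chain. Leukocyte integrins are largely restricted to blood-derived cells, where they bind immunoglobulin-family ligands and cadherins on other cells. Matrix integrins bind collagen, laminin, fibronectin or vitronectin and are found on most cells fixed in tissue. A laminin is built of one α, one β and one γ chain, and in adipose tissue a basement membrane surrounds each adipocyte and vessel. In bulk tissue, fewer cells of a type and less RNA per cell cannot be told apart.

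Itgam, Itgax and Itgad encode the αM, αX and αD chains that pair with the β2 chain. In mouse they lie next to each other on chromosome 7, with pseudogenes as the only genes between them in RefSeq (GRCm38.p6). The 150 bases before the annotated start of Itgam (chr7:128062490-128062639, plus strand) and Itgax (chr7:128129400-128129549, plus strand) are shown because the 2 genes were both higher in HFD than in ND. Capitals mark GAGGAA or its reverse complement, a core bound by PU.1, a myeloid transcription factor known to act on the Itgam promoter.
Itgam: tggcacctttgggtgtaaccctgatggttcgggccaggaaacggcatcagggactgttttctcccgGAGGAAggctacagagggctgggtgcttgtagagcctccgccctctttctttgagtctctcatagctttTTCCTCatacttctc
Itgax: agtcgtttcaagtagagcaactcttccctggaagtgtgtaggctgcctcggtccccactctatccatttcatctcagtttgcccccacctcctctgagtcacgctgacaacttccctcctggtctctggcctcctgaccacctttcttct
The motif stood at 84 and 15 bases before the Itgam start and was not in the Itgax window. Over the 250 bases before each start and on both strands, it was in 23.3% of all 32851 promoter windows of the table. It was in 13 of the 21 windows found for 18 of the 28 genes, among them laminin and matrix integrin genes. This motif was picked from 11 searched, several of which overlap it, after their matches had been seen. The other 10 were in 0% to 42.9% of these windows and in 2.44% to 32.7% of all windows. One of them, GGAAGT, was in 9 of the 21 windows and in 19.7% of all windows. It stands unmarked in the Itgax sequence above, in both orientations. The windows of Itgb7, Itga1 and Itga9 did not hold GAGGAA. No window was found for Itgad, Itgae or Itgb2.

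Leukocyte integrins were mostly higher in HFD than in ND and mostly lower in LU than in HFD. In HFD against ND, 5 of the 6 genes were higher and 1 was lower, where 25.2% of named genes were higher and 27.7% lower at an adjusted p under 0.05 in limma. Of all probes kept, 37.3% passed in that comparison. In LU against HFD, 4 genes were lower and 1 was higher, where 18.2% of named genes were lower and 19.7% higher, and 28% of probes kept passed. Their median log2 fold change was 0.70 in HFD against ND (0.55 with Itgad and Itgax at their lower bounds) and -0.28 in LU against HFD. Over all named genes these medians were -0.03 and 0.02. Both comparisons use the same 3 HFD arrays. Itgad and Itgax were kept through their LU and HFD arrays alone, and both were also called in HFD against ND with no filter on dim probes.

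**Figure D1:**
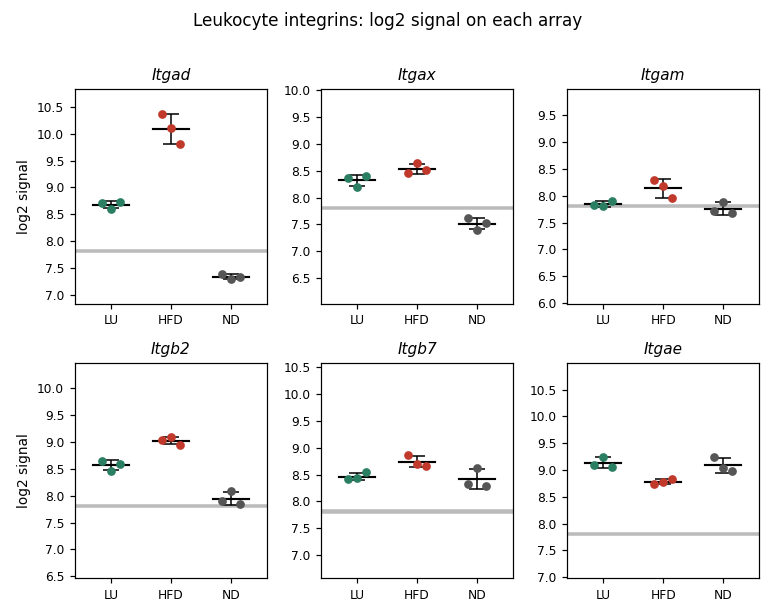
Log2 signal of 6 leukocyte integrin genes on each array (points), with the group mean and SD (line and bars) for LU, HFD and ND and 3 arrays a group. The grey band marks the dimmest detected signals, 7.79 to 7.83, and each panel spans the same number of log2 units. Itgad and Itgax lie below the band on the 3 ND arrays, and Itgae alone is lower on HFD arrays than on the others.

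Itgad, which encodes the αD chain carried by tissue macrophages, had the largest difference of the 27 genes tested in each comparison. Its log2 signal was 8.71, 8.60 and 8.72 on LU arrays, 10.37, 10.10 and 9.80 on HFD arrays and 7.38, 7.29 and 7.33 on ND arrays. The groups did not overlap, and on ND arrays the gene was not well above background. In HFD it was at least 4.87-fold higher than in ND, measured against the background of the ND arrays (fitted log2 fold change 2.76, SE 0.11, adjusted p = 5.9e-09). In LU its log2 fold change was -1.41 against HFD (SE 0.11, adjusted p = 1.5e-05), and the gene was still at least 1.83-fold higher than in ND (adjusted p = 4.1e-06). With the background subtracted the log2 fold change of Itgad in LU against HFD was -1.89. The fitted values against ND were then 2.98 in LU and 4.87 in HFD, which rest on ND signals not above background and are neither bounds nor measured sizes.

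A second Itgad probe gave the same pattern. Like the first, this probe was kept through its LU and HFD arrays alone, so it gives no separate test against ND. It read 8.55, 8.57 and 8.62 on LU arrays, 10.26, 9.92 and 9.63 on HFD arrays and 7.65, 7.47 and 7.48 on ND arrays. Its log2 fold change was -1.36 in LU against HFD, and it was at least 4.37-fold higher in HFD than in ND, where it was not well above background. One more Itgad probe was detected on 1 of the 9 arrays and was not tested. On HFD arrays both tested probes spread more than on the others, with an SD of 0.28 and 0.31, and the array of HFD replicate 3 was the lowest in each.

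Itgb2, the β2 chain that the αD, αM and αX chains share, was detected on all 9 arrays. Its log2 signal was 8.64, 8.46 and 8.60 on LU arrays, 9.04, 9.09 and 8.95 on HFD arrays and 7.90, 8.08 and 7.85 on ND arrays. LU lay between HFD and ND without overlap. Its log2 fold change was 1.08 in HFD against ND (SE 0.07, adjusted p = 2.5e-07), -0.46 in LU against HFD (SE 0.07, adjusted p = 0.00069) and 0.62 in LU against ND (SE 0.07, adjusted p = 7e-05). With the background subtracted the Itgb2 values were 2.05, -0.71 and 1.33.

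Itgax, the αX chain of dendritic cells and of macrophages in obese adipose tissue, was not well above background on ND arrays. It read 8.36, 8.20 and 8.40 on LU arrays, 8.45, 8.64 and 8.51 on HFD arrays and 7.62, 7.40 and 7.53 on ND arrays. It exceeded its ND level at least 1.65-fold in HFD (adjusted p = 6.9e-07) and at least 1.43-fold in LU (adjusted p = 1.6e-05). Between LU and HFD the log2 fold change was -0.21 (SE 0.08, adjusted p = 0.054), short of the threshold although the arrays did not overlap. It passed without ND replicate 1 (adjusted p = 0.043) or ND replicate 2 (adjusted p = 0.031), neither of which is in that comparison but both of which enter the estimate of the spread, and in a fit of the LU and HFD arrays alone (adjusted p = 0.027). With the background subtracted the fitted Itgax values were 2.01 in LU against ND and 2.40 in HFD against ND, again from ND signals not above background, so that they are no measured sizes. A second Itgax probe was detected on no array.

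Itgam, the αM chain of monocytes, macrophages and neutrophils, lay close to background. Its log2 signal was 7.83, 7.81 and 7.91 on LU arrays, 8.29, 8.18 and 7.95 on HFD arrays and 7.71, 7.89 and 7.68 on ND arrays, and it was detected on 1 of the 3 ND arrays. The log2 fold change was 0.38 in HFD against ND (SE 0.08, adjusted p = 0.0035) and -0.29 in LU against HFD (SE 0.08, adjusted p = 0.023), and LU overlapped ND (log2 fold change 0.09, adjusted p = 0.46). With the background subtracted the first value of Itgam was 1.00 and the second -0.74. The fall in LU against HFD did not pass without HFD replicate 1 (adjusted p = 0.095), HFD replicate 2 (0.078), LU replicate 1 (0.074) or LU replicate 2 (0.082).

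Itgb7 and Itgae encode the 2 chains of a receptor for E-cadherin on mucosal lymphocytes and some dendritic cells, and they moved in opposite directions. Itgb7 read 8.41, 8.43 and 8.54 on LU arrays, 8.86, 8.70 and 8.66 on HFD arrays and 8.32, 8.63 and 8.29 on ND arrays. It was higher in HFD than in ND by a log2 fold change of 0.33 (SE 0.09, adjusted p = 0.011) and lower in LU than in HFD at -0.28 (SE 0.09, adjusted p = 0.031). Itgae read 9.10, 9.25 and 9.05 on LU arrays, 8.73, 8.78 and 8.83 on HFD arrays and 9.24, 9.03 and 8.99 on ND arrays. It was lower in HFD than in ND at -0.31 (SE 0.07, adjusted p = 0.0061) and higher in LU than in HFD at 0.35 (SE 0.07, adjusted p = 0.004), and a second probe gave -0.28 and 0.27, both past the threshold.

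The Itgb7 fall in LU was among the less stable calls. It did not pass without HFD replicate 1 (adjusted p = 0.12), HFD replicate 2 (0.061), LU replicate 1 (0.11) or LU replicate 2 (0.099), after median scaling (0.075) or with the background subtracted (0.06). The Itgb7 rise in HFD reached an adjusted p of 0.05 without HFD replicate 1. The number of leukocyte integrins lower in LU than in HFD ranged from 2 to 5 as each array was left out, being 2 without HFD replicate 1, HFD replicate 2, LU replicate 1 or LU replicate 2.

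Macrophage markers mostly moved alongside the leukocyte integrins other than Itgae. Of 17 listed, 14 were measured, and 12 were higher and 1 lower in HFD than in ND, while 14 were lower in LU than in HFD. Their summed signal was 45809 to 52374 on LU arrays, 71521 to 79363 on HFD arrays and 35252 to 39889 on ND arrays. Adgre1, the F4/80 antigen of macrophages, had a log2 mean of 11.64 in LU, 12.44 in HFD and 10.78 in ND. Of the 14, 7 were higher in LU than in ND, Adgre1 among them (21.1% of named genes). The 4 lower in LU than in ND were Cd14, Cd163, Mrc1 and Vsig4 (18.6% of named genes). The 3 measured dendritic cell markers summed to 915 to 972 on LU arrays, 982 to 1041 on HFD arrays and 1002 to 1074 on ND arrays. In HFD against ND, Clec9a was higher (0.39) and Cd209a and Zbtb46 were lower (-0.21 and -0.24), unlike Itgax. In LU against HFD, Cd209a was lower (-0.39) and the others did not pass. Of the 8 measured mast cell markers, 7 fell in LU relative to HFD, whereas Hdc, the histamine-forming enzyme, rose (log2 fold change 0.61, adjusted p = 8e-04). Their sum was 4468 to 4750 on LU arrays and 5816 to 7324 on HFD arrays. The 5 measured T cell markers summed to 9081 to 9594 on LU arrays, 9675 to 10549 on HFD arrays and 7694 to 8545 on ND arrays, a sum made up mostly of Cd8b1, a chain of the CD8 receptor (log2 mean 12.80 in LU, 12.81 in HFD and 12.40 in ND). In LU, Cd3d, Cd3g and Thy1 were lower than in HFD (-0.34, -0.44 and -0.41) and lower than in ND (-0.35, -0.28 and -0.22). The 3 measured neutrophil markers summed to 2474 to 2688, 2946 to 4177 and 1386 to 1972 on LU, HFD and ND arrays, and S100a9 and Mmp8 were below the filter. Of the 3, Csf3r and S100a8 were higher in HFD than in ND, whereas Mmp9 was lower (-0.71, adjusted p = 0.00022). None of the 3 passed in LU against HFD in limma (1 was lower at an unadjusted p under 0.05). The part of these markers in the integrin values was not tested.

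Ligands of leukocyte integrins were measured beside the receptors. Of 6, 1 passed in HFD against ND, where 25.2% of named genes were higher and 27.7% lower. It was F11r, a tight-junction ligand of β2 integrins (log2 fold change -0.23, adjusted p = 0.021). In LU against HFD, Vcam1, the endothelial ligand of α4 integrins, was lower (-0.50, adjusted p = 0.0017), as was Icam1, the main ligand of β2 integrins (-0.24, adjusted p = 0.035). Cdh1, which encodes E-cadherin, was higher in LU than in HFD (0.39, adjusted p = 0.015). Vcam1 was also lower in LU than in ND (-0.40, adjusted p = 0.006), as was Jam2 (-0.25, adjusted p = 0.037), while Cdh1 was higher (0.31, adjusted p = 0.041).

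Matrix integrins showed smaller differences. In HFD against ND, 5 of the 11 genes tested were higher and 1 was lower, where 25.2% and 27.7% of named genes were higher and lower, and their median log2 fold change was 0.11. In LU against HFD, 4 were lower and the other 7 did not pass in limma (at an unadjusted p under 0.05, 1 was higher and 4 were lower), where 18.2% of named genes were lower, and the median was -0.07. In these comparisons no absolute value exceeded the 0.52 of Itga11. The collagen receptors, the fibronectin and vitronectin receptors and the laminin receptors differed among themselves.

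**Figure D2:**
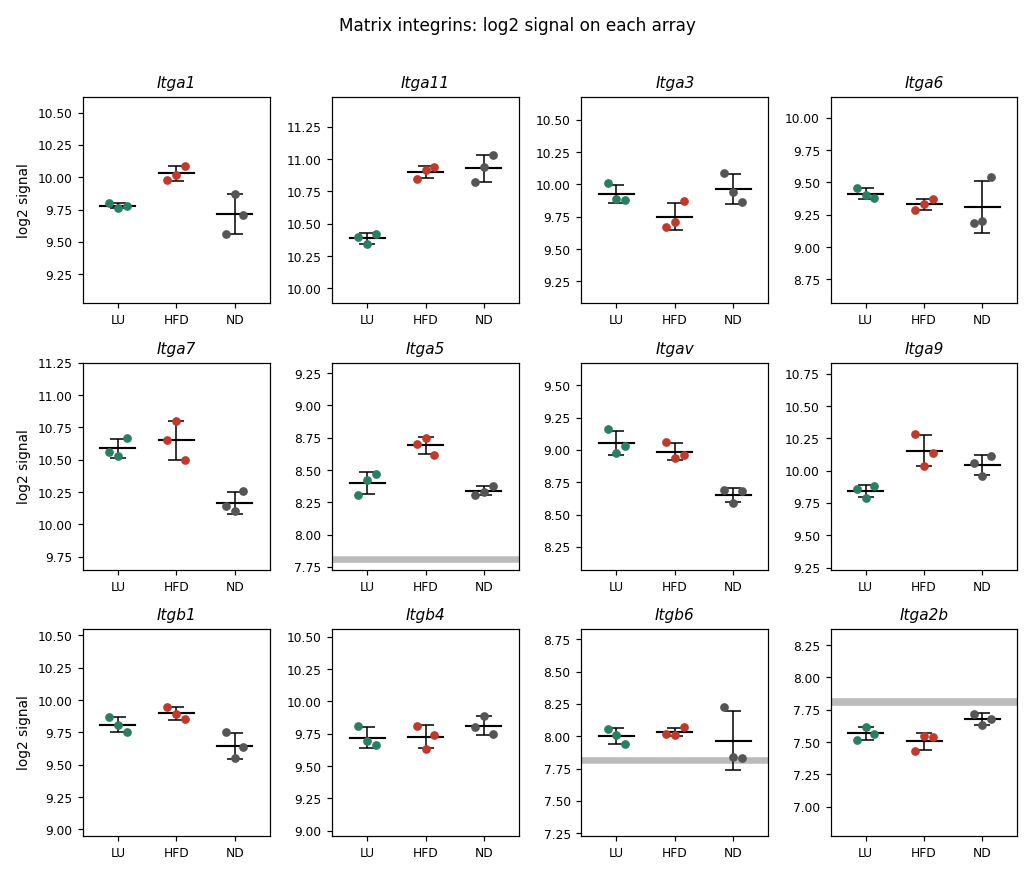
Log2 signal of 12 matrix integrin genes on each array (points), with the group mean and SD (line and bars) for LU, HFD and ND and 3 arrays a group. The panels span the same number of log2 units, and the grey band marks the dimmest detected signals, 7.79 to 7.83, where it falls in a panel. Itga11 is lower on the 3 LU arrays than on all others, Itga7 and Itgav are lower on the 3 ND arrays, and Itga2b lies below the band throughout.

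Itga11 and Itga1 encode collagen-binding α chains that pair with the β1 chain, and Itga11 is typical of fibroblasts. Itga11 read 10.40, 10.34 and 10.42 on LU arrays, 10.85, 10.92 and 10.94 on HFD arrays and 10.82, 10.94 and 11.03 on ND arrays. LU was thus below both other groups, which overlapped. Itga11 had a log2 fold change of -0.52 in LU against HFD (SE 0.06, adjusted p = 0.00013), -0.55 in LU against ND (SE 0.06, adjusted p = 5.9e-05) and -0.03 in HFD against ND (adjusted p = 0.76). A second Itga11 probe gave -0.31, -0.33 and -0.03, with the same calls.

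Itga1 read 9.80, 9.76 and 9.78 on LU arrays, 9.98, 10.02 and 10.09 on HFD arrays and 9.56, 9.87 and 9.71 on ND arrays. HFD was above both other groups, at a log2 fold change of 0.32 over ND (SE 0.07, adjusted p = 0.0036), while LU against HFD gave -0.25 (SE 0.07, adjusted p = 0.019). The fall of Itga1 in LU did not pass after median scaling (-0.19, adjusted p = 0.084), nor without HFD replicate 2 (adjusted p = 0.05), HFD replicate 3 (0.067), LU replicate 1 (0.052), LU replicate 2 (0.067) or LU replicate 3 (0.056).

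Itga5, the α chain of the main fibronectin receptor, was higher in HFD than in the other groups. It read 8.31, 8.42 and 8.47 on LU arrays, 8.70, 8.75 and 8.62 on HFD arrays and 8.31, 8.33 and 8.38 on ND arrays. Its log2 fold change was 0.35 in HFD against ND (SE 0.06, adjusted p = 0.00052) and -0.29 in LU against HFD (SE 0.06, adjusted p = 0.0034). A dimmer Itga5 probe was detected on the HFD arrays alone and was kept only through them, so it gives no separate test. It read 7.78, 7.80 and 7.71 on LU arrays, 7.82, 7.96 and 7.85 on HFD arrays and 7.66, 7.73 and 7.70 on ND arrays.

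Itga9, whose receptor binds tenascin and VCAM-1, was lowest in LU. It read 9.86, 9.79 and 9.88 on LU arrays, 10.28, 10.04 and 10.14 on HFD arrays and 10.06, 9.96 and 10.11 on ND arrays. LU did not overlap either group, while HFD overlapped ND. Fitted log2 fold changes were -0.31 in LU against HFD (SE 0.07, adjusted p = 0.0052) and -0.20 in LU against ND (SE 0.07, adjusted p = 0.043). The second call of Itga9 was lost without any one of 6 arrays, at adjusted p = 0.079 without ND replicate 1, 0.12 without ND replicate 3, 0.055 without HFD replicate 3, 0.093 without LU replicate 1, 0.14 without LU replicate 2 and 0.073 without LU replicate 3.

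Itga7, a laminin receptor chain best known in muscle, and Itgb1, the β chain that pairs with most matrix α chains, were higher in HFD than in ND. Itga7 read 10.56, 10.53 and 10.67 on LU arrays, 10.65, 10.80 and 10.50 on HFD arrays and 10.14, 10.10 and 10.26 on ND arrays. It was higher than in ND by a log2 fold change of 0.49 in HFD (SE 0.08, adjusted p = 0.0003) and of 0.42 in LU (SE 0.08, adjusted p = 0.0017), with LU and HFD overlapping. Itgb1 read 9.87, 9.81 and 9.75 on LU arrays, 9.95, 9.89 and 9.85 on HFD arrays and 9.75, 9.55 and 9.64 on ND arrays. HFD exceeded ND by 0.25 on the log2 scale (SE 0.06, adjusted p = 0.0072), whereas the LU against HFD value was -0.08 (adjusted p = 0.35). In LU against ND the Itgb1 value of 0.17 did not pass (adjusted p = 0.064), but it did without ND replicate 1 (0.22, adjusted p = 0.023) and in the authors' log2 table (0.16, adjusted p = 0.05 after rounding).

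Itga3, a laminin receptor chain of epithelia, was lower in HFD than in ND. It read 10.01, 9.89 and 9.88 on LU arrays, 9.67, 9.71 and 9.87 on HFD arrays and 10.09, 9.94 and 9.86 on ND arrays. HFD and ND arrays overlapped, and the log2 fold change was -0.21 (SE 0.07, adjusted p = 0.037). This Itga3 call was lost without ND replicate 1 (-0.15, adjusted p = 0.13), ND replicate 2 (0.051), HFD replicate 1 (0.13), HFD replicate 2 (0.11), LU replicate 2 (0.053) or LU replicate 3 (0.051). The value of 0.18 in LU against HFD (adjusted p = 0.089) passed without HFD replicate 3 (0.24, adjusted p = 0.042) and after median scaling (0.23, adjusted p = 0.034).

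Of the remaining matrix integrins, Itgb4, the hemidesmosome chain that pairs with α6, and Itgb6, an epithelial partner of αv, passed in none of the 3 comparisons, with log2 fold changes from -0.09 to 0.07 (at an unadjusted p under 0.05 both also passed in none). Itgb6 was 8.23 on ND replicate 1 against 7.84 and 7.83 on the other ND arrays. Without ND replicate 1 Itgb6 passed in LU against ND (0.17, adjusted p = 0.043) and in HFD against ND (0.20, adjusted p = 0.019). The laminin receptor chain Itga6 and the vitronectin receptor chain Itgav depended on the probe, as described below with the other genes read by several probes.

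Markers of fibroblasts and adipocyte progenitors fell with Itga11 and Itga9 in LU. Of the 9 measured, 7 fell in LU relative to HFD. The summed signal of the 9 was 67220 to 70606 on LU arrays, 79609 to 83409 on HFD arrays and 66878 to 76555 on ND arrays. LU thus overlapped ND in this sum, unlike in Itga11 and Itga9. The sum was made up mostly of Dcn, which passed in no comparison (log2 mean 15.57 in LU, 15.62 in HFD and 15.60 in ND). In HFD against ND, 5 of the 9 markers were higher and 2 lower. Gene by gene, 4 were lower in LU than in ND (Dpt, Mfap5, Pdgfra and Pi16), as Itga11 and Itga9 were. Against these, 2 were higher (Col1a1 and Col3a1), where 18.6% of named genes were lower and 21.1% higher. The 4 measured markers of smooth muscle and pericytes had sums of 14581 to 15118, 14511 to 15750 and 11630 to 15148 on LU, HFD and ND arrays. The part of these cells in the integrin values was not tested.

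Among matrix ligands, Fn1, which encodes fibronectin, the ligand of the Itga5 receptor, was lower in LU than in HFD (log2 fold change -0.87, SE 0.10, adjusted p = 0.00013) and than in ND (-0.58, adjusted p = 0.0016). Of the 7 ligands measured, 4 were lower in LU than in HFD (18.2% of named genes). Fn1 was followed by Ccn2 (-0.56, adjusted p = 0.0039) and Thbs1, a thrombospondin (-0.43, adjusted p = 0.048). In HFD against ND, 3 were higher and 1 lower (25.2% and 27.7% of named genes). The largest values were those of Tnc, which encodes tenascin-C (0.44, adjusted p = 0.009), Emilin1 (0.33, adjusted p = 0.0037) and Fn1 (0.29, adjusted p = 0.043). Relative to ND, 3 were lower in LU (18.6% of named genes), among them Ccn2 (-0.81, adjusted p = 0.00036) and Thbs1 (-0.66, adjusted p = 0.0053).

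Regulators of integrin activation, whether they raise or lower it, and adhesion adaptors were measured for 15 genes. Of these, 7 were higher and 2 lower in HFD than in ND (25.2% and 27.7% of named genes). The largest values belonged to Fermt3, the kindlin of blood cells (0.77, adjusted p = 6.8e-06), Apbb1ip, the Rap1 effector of leukocytes (0.70, adjusted p = 2.6e-06), and Lims2, an adaptor of focal adhesions (-0.55, adjusted p = 5.5e-05). Between LU and HFD, 5 were higher and 4 lower in LU (19.7% and 18.2% of named genes). Apbb1ip was at -0.60 (adjusted p = 5.9e-05), Fermt3 at -0.50 (adjusted p = 0.00057) and Fermt1, the epithelial kindlin, at 0.48 (adjusted p = 0.033). Between LU and ND, 5 were higher and 1 lower in LU (21.1% and 18.6% of named genes). The largest were Sharpin (0.39, adjusted p = 0.00015), Ptk2b (0.34, adjusted p = 0.0082) and Tln2 (0.29, adjusted p = 0.033). The kindlin and Rap1 effector of leukocytes thus had the same signs as Itgb2, positive in HFD against ND and negative in LU against HFD.

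Laminin chains were called in both directions, in equal numbers in each comparison, and these counts rest on 9 chains. In HFD against ND, 3 of the 9 chains were higher and 3 lower (median -0.04), where 25.2% of named genes were higher and 27.7% lower. In LU against HFD, 3 were higher and 3 lower (median 0.10), where 19.7% were higher and 18.2% lower. The α chains Lama2 and Lama4 changed in opposite directions in both comparisons, and Lamb3 had the largest difference from ND. Lama5 was the one chain that was higher in HFD than in ND and higher again in LU than in HFD.

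**Figure D3:**
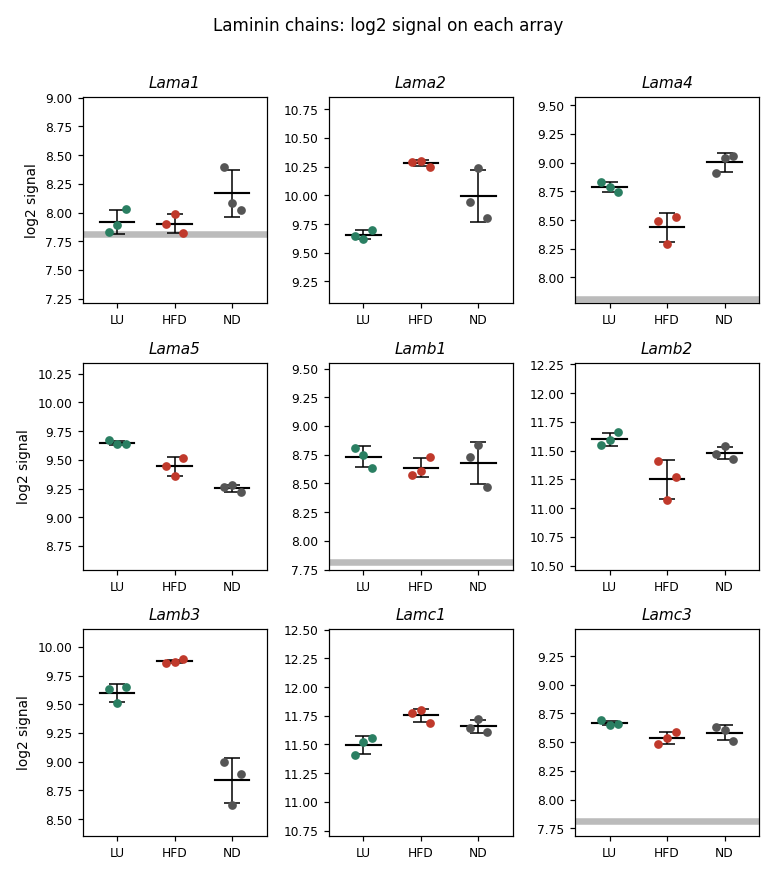
Log2 signal of 9 laminin chain genes on each array (points), with the group mean and SD (line and bars) for LU, HFD and ND and 3 arrays a group. The panels span the same number of log2 units, and the grey band marks the dimmest detected signals, 7.79 to 7.83. Lama2 is highest on HFD arrays and lowest on LU arrays, Lama4 is lowest on HFD arrays, and Lamb3 is lowest on ND arrays.

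Lama2 encodes the laminin α chain of muscle and nerve basement membranes. It read 9.65, 9.62 and 9.70 on LU arrays, 10.29, 10.30 and 10.25 on HFD arrays and 9.94, 10.24 and 9.80 on ND arrays. No group overlapped another. Lama2 had a log2 fold change of -0.62 in LU against HFD (SE 0.09, adjusted p = 0.00035), -0.34 in LU against ND (SE 0.09, adjusted p = 0.013) and 0.29 in HFD against ND (SE 0.09, adjusted p = 0.022). The last Lama2 call did not pass without ND replicate 3 (0.19, adjusted p = 0.083), ND replicate 1 (0.061), HFD replicate 1 (0.054) or HFD replicate 2 (0.065), and the LU against ND call did not pass without LU replicate 2 (0.051).

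Lama4 encodes an α chain of vessel and adipocyte basement membranes. It read 8.83, 8.79 and 8.74 on LU arrays, 8.49, 8.29 and 8.53 on HFD arrays and 8.91, 9.04 and 9.06 on ND arrays. The log2 fold change was -0.57 in HFD against ND (SE 0.07, adjusted p = 4.7e-05) and 0.35 in LU against HFD (SE 0.07, adjusted p = 0.0031). In LU against ND it was -0.22 (SE 0.07, adjusted p = 0.036), a Lama4 call that was lost without ND replicate 2 (adjusted p = 0.089), ND replicate 3 (0.095), LU replicate 1 (0.062), LU replicate 2 (0.088) or LU replicate 3 (0.12).

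Lama5, the α chain found most widely in adult basement membranes, read 9.67, 9.64 and 9.64 on LU arrays, 9.45, 9.36 and 9.52 on HFD arrays and 9.26, 9.28 and 9.22 on ND arrays. The 3 groups did not overlap. Lama5 had a log2 fold change of 0.40 in LU against ND (SE 0.06, adjusted p = 0.00027), 0.21 in LU against HFD (SE 0.06, adjusted p = 0.015) and 0.19 in HFD against ND (SE 0.06, adjusted p = 0.016). The LU against HFD call of Lama5 was lost without HFD replicate 2 (0.16, adjusted p = 0.073) or LU replicate 1 (adjusted p = 0.056), and that of HFD against ND without HFD replicate 3 (0.15, adjusted p = 0.069) or after median scaling (0.076).

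Lama1, an α chain mainly of embryonic basement membranes, lay near background. It read 7.83, 7.89 and 8.03 on LU arrays, 7.90, 7.99 and 7.82 on HFD arrays and 8.40, 8.08 and 8.02 on ND arrays. It was lower in HFD than in ND at a log2 fold change of -0.26 (SE 0.09, adjusted p = 0.041). The Lama1 call was lost without ND replicate 1 (-0.15, adjusted p = 0.15), HFD replicate 1 (0.088), HFD replicate 3 (0.13), LU replicate 1 (0.05) or LU replicate 2 (0.058). The -0.25 of LU against ND (adjusted p = 0.057) passed without ND replicate 3 (-0.32, adjusted p = 0.024).

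Lamb3 encodes a β chain of the laminin that anchors epithelia. It read 9.63, 9.51 and 9.65 on LU arrays, 9.86, 9.87 and 9.89 on HFD arrays and 9.0, 8.62 and 8.89 on ND arrays. Both high-fat groups were above ND, by a log2 fold change of 1.04 in HFD (SE 0.08, adjusted p = 1.2e-06) and 0.76 in LU (SE 0.08, adjusted p = 4.6e-05). The log2 fold change in LU against HFD was -0.28 (SE 0.08, adjusted p = 0.027). That Lamb3 call was lost without any one of the 6 arrays compared, at adjusted p = 0.061, 0.069 and 0.068 without HFD replicates 1, 2 and 3 and at 0.059, 0.11 and 0.05 without LU replicates 1, 2 and 3. It was also lost after median scaling (0.054) and with the background subtracted (0.094).

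Lamb2 encodes the β chain of synaptic and kidney basement membranes. It read 11.55, 11.59 and 11.66 on LU arrays, 11.41, 11.07 and 11.27 on HFD arrays and 11.47, 11.54 and 11.43 on ND arrays. It was higher in LU than in HFD at a log2 fold change of 0.35 (SE 0.08, adjusted p = 0.0053) and lower in HFD than in ND at -0.23 (SE 0.08, adjusted p = 0.033). The second Lamb2 call was lost without ND replicate 1 (adjusted p = 0.057), ND replicate 2 (0.085), HFD replicate 2 (-0.14, adjusted p = 0.15) or HFD replicate 3 (0.06), and with the background subtracted (0.072).

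Lamc1, the γ chain of most laminins, was lower in LU than in HFD. It read 11.41, 11.52 and 11.56 on LU arrays, 11.77, 11.80 and 11.69 on HFD arrays and 11.64, 11.72 and 11.61 on ND arrays. The log2 fold change was -0.25 in LU against HFD (SE 0.06, adjusted p = 0.0079) and -0.16 in LU against ND (adjusted p = 0.066). The remaining chains, Lamb1 and Lamc3, passed in none of the comparisons, with log2 fold changes from -0.05 to 0.13. The laminin counts moved as single arrays were left out, from 1 to 3 lower in HFD against ND and from 0 to 2 lower in LU against ND. The 1 in the first was reached without ND replicate 1 or HFD replicate 3. In the second, the 0 was reached without LU replicate 2, and the count was 1 without ND replicate 2, LU replicate 1 or LU replicate 3.

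Other components of the basement membrane were higher in HFD than in ND in 6 of the 10 genes measured (25.2% of named genes). The median log2 fold change of the 10 was 0.37. The 6 were led by Col4a2, a type IV collagen chain (0.76, SE 0.08, adjusted p = 6.8e-06), Sparc, a collagen-binding glycoprotein (0.56, adjusted p = 0.00013), and Col18a1, the endostatin precursor (0.46, adjusted p = 0.0089). Between LU and HFD, 2 were higher and 3 lower in LU (19.7% and 18.2% of named genes). Among them were Col4a5 (-0.58, adjusted p = 0.0022), Agrn, which encodes agrin (0.33, adjusted p = 0.0027), and Col4a1 (-0.31, adjusted p = 0.011). Relative to ND, 5 were higher in LU (21.1% of named genes), with Col18a1 at 0.50 (adjusted p = 0.0079), Col4a2 at 0.50 (adjusted p = 0.00046) and Sparc at 0.49 (adjusted p = 0.00073).

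Endothelial and adipocyte markers were measured beside the laminins. The 10 vascular endothelial markers summed to 64880 to 66005 on LU arrays, 55218 to 64748 on HFD arrays and 68721 to 73510 on ND arrays. Of them 1 was higher in LU than in HFD, and 4 were lower in HFD than in ND. Of 13 adipocyte markers, 9 were lower and 1 higher in HFD than in ND, and 7 were higher in LU than in HFD. The 7 mesothelial markers summed to 3320 to 3538, 3463 to 4093 and 4803 to 5009 on LU, HFD and ND arrays. They did not move together. In LU against HFD, Krt8 and Krt18 were higher and Lrrn4, Upk1b and Upk3b lower. In LU against ND, 2 were higher and 5 lower, and in HFD against ND 4 were lower. The part of all these markers in the laminin values was not tested.

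Over all 27 genes tested, 13 were higher and 6 lower in HFD than in ND (25.2% and 27.7% of named genes), and 5 were higher and 11 lower in LU than in HFD (19.7% and 18.2% of named genes). In LU against ND, 7 were higher and 5 lower, where 21.1% and 18.6% of named genes were higher and lower and 29.9% of probes kept passed. The 7 higher in LU than in ND were Itgad, Itgax, Itgb2, Itga7, Itgav, Lama5 and Lamb3, and the 5 lower were Itga11, Itga9, Lama2, Lama4 and Itgb1bp1. The calls of Itgav, Lama4 and Itgb1bp1 rest on the brightest probe alone. Their other tested probes did not pass in this comparison, and that of Itgav was at -0.04 (adjusted p = 0.66 in limma). By family, the counts higher and lower in LU than in ND were 3 and 0 of 6 leukocyte integrins in limma (3 and 0 also at an unadjusted p under 0.05 and by the rank product), 2 and 2 of 11 matrix integrins and 2 and 2 of 9 laminins. After median scaling, the calls over all named genes in LU against HFD were 1953 higher and 1108 lower, compared with 1714 and 1587 here.

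**Figure D4:**
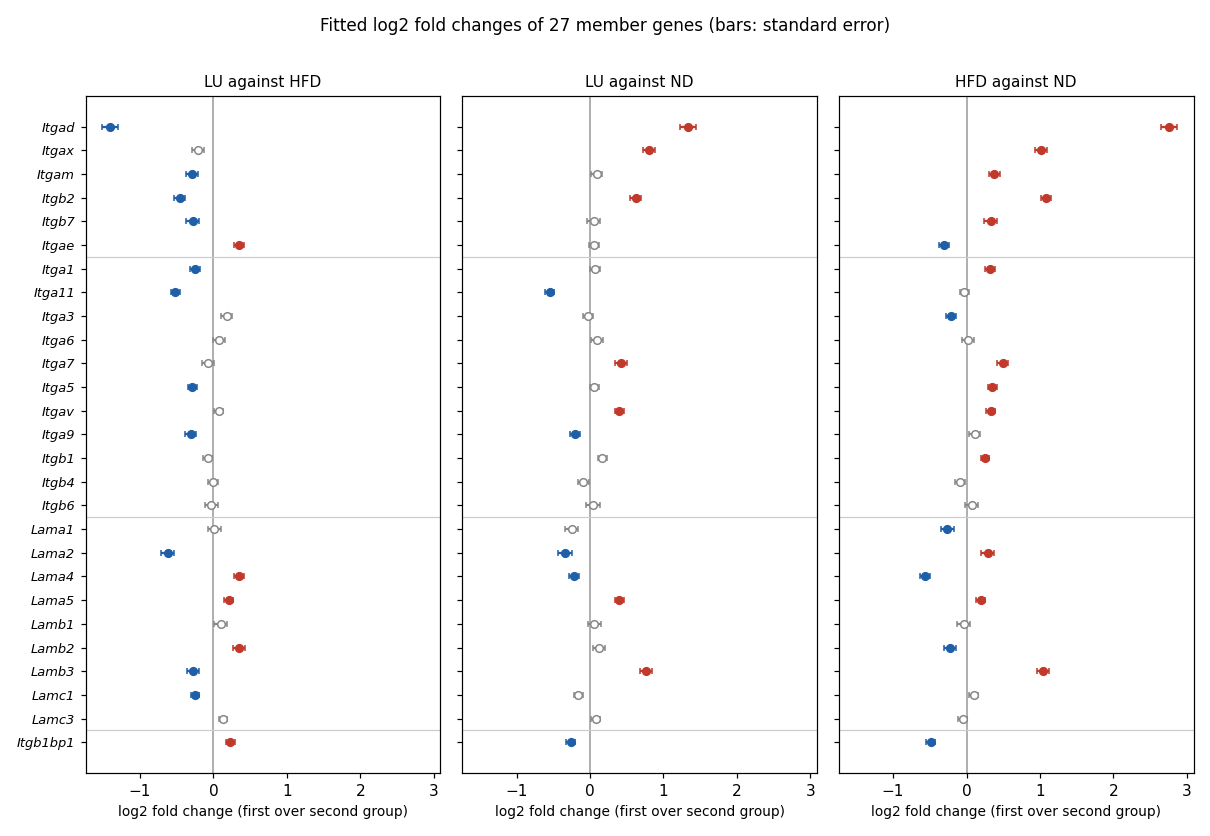
Fitted log2 fold changes of the 27 genes tested, in LU against HFD, LU against ND and HFD against ND (x axis, first over second group), with bars for the standard error. Filled red and blue points passed as higher and lower at an adjusted p under 0.05 in limma and open points did not, and grey lines separate leukocyte integrins, matrix integrins, laminins and Itgb1bp1. Itgad has the largest value in each panel, -1.41, 1.34 and 2.76.

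In 8 of the genes, 2 or 3 probes passed the filter, and in 5 of these the probes did not give the same calls. The HFD raised both Itgav probes over ND (0.33 and 0.30). Between LU and HFD, however, the brighter Itgav probe was at 0.07 (adjusted p = 0.45), with 9.16, 8.98 and 9.03 on LU arrays, 9.06, 8.94 and 8.96 on HFD arrays and 8.69, 8.59 and 8.68 on ND arrays. The dimmer probe was at -0.34 (SE 0.06, adjusted p = 0.0011), with 8.24, 8.26 and 8.41 on LU arrays, 8.67, 8.61 and 8.63 on HFD arrays and 8.34, 8.37 and 8.31 on ND arrays. On the brighter probe LU was thus close to HFD, and on the dimmer one it was close to ND.

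For Itga6 the dimmer probe was higher in LU than in HFD (0.39, SE 0.08, adjusted p = 0.0042) and than in ND (0.27, adjusted p = 0.03), with 9.07, 9.04 and 9.07 on LU arrays, 8.56, 8.73 and 8.71 on HFD arrays and 8.97, 8.60 and 8.82 on ND arrays. The brighter Itga6 probe was at 0.08 (adjusted p = 0.50) and 0.10 (adjusted p = 0.39) in these comparisons, and the value against ND passed without ND replicate 3 (0.21, adjusted p = 0.018). Itgb1bp1 encodes a protein that binds the β1 tail and restrains its activation. Its brighter probe was at -0.49 in HFD against ND (SE 0.06, adjusted p = 4.2e-05), 0.23 in LU against HFD (SE 0.06, adjusted p = 0.013) and -0.26 in LU against ND (SE 0.06, adjusted p = 0.0071). The other Itgb1bp1 probe was at -0.01, 0.08 and 0.08 and passed in none, and the LU against HFD call of the brighter probe was lost without HFD replicate 1 (0.053) or LU replicate 2 (0.051).

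**Figure D5:**
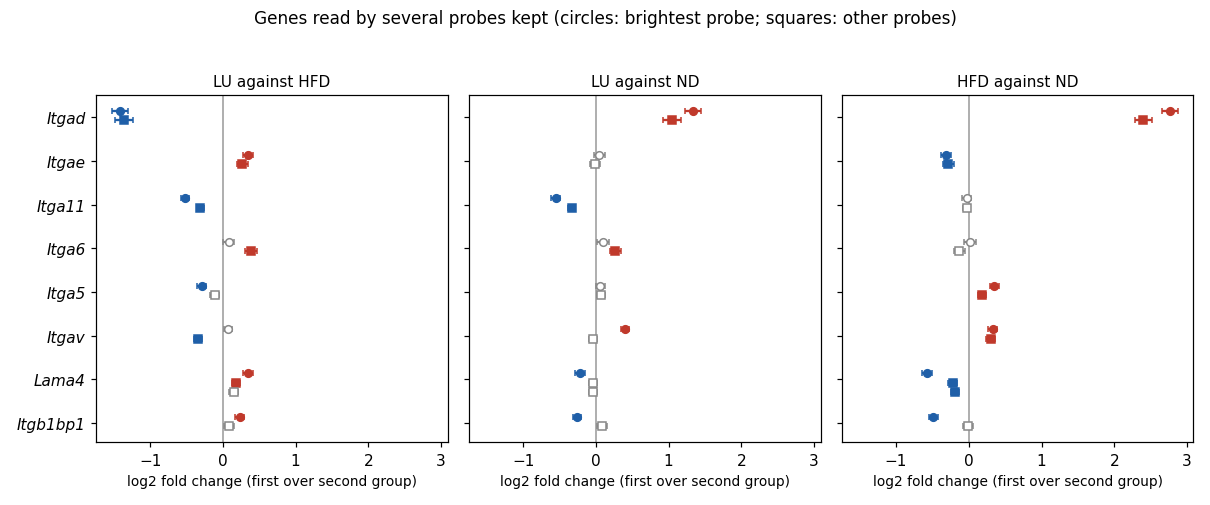
Fitted log2 fold changes (x axis, first over second group) of the 8 genes with several probes that passed the filter, in LU against HFD, LU against ND and HFD against ND. Circles are the brightest probe of a gene and squares its other probes, bars are the standard error, and filled points passed at an adjusted p under 0.05. The probes of Itgad, Itgae and Itga11 have the same calls in each panel, though those of Itga11 differ in size (-0.52 and -0.31 in LU against HFD). Those of Itgav in LU against HFD lie on opposite sides of 0, at 0.07 and -0.34.

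The 2 dimmer Lama4 probes lay near background. One of them was detected on 1 LU, 0 HFD and 2 ND arrays and was thus kept through the other groups alone. The other was detected on 2 LU, 1 HFD and 3 ND arrays. It was lower in HFD than in ND (-0.19, adjusted p = 0.032) and did not pass in LU against HFD (0.15, adjusted p = 0.097) or LU against ND (-0.04, adjusted p = 0.68), where the brightest Lama4 probe passed at 0.35 and -0.22. The dimmer Itga5 probe lay near background, as given above. The probes of Itgad, Itgae and Itga11 gave the same calls in all 3 comparisons, and which transcripts each probe reads was not analysed here.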

How the data were processed

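Epididymal WAT RNA was hybridised to Illumina MouseWG-6 v2 BeadChips, 3 arrays each for LU, HFD and ND. The authors deposited probe signal intensity (linear) and, for each signal, a detection p-value, together with a log2 table of 17128 probes that the authors had quantile-normalized. How these probes were selected is not given in the sources used here. The intensities of all 45281 probes were quantile-normalized and log2-transformed without background subtraction, which compresses differences near background. The 20558 probes detected (p under 0.05) on 3 or more of 9 arrays were kept. Names came from the platform table, and 7 probes with several genes were left out. A gene was read from its brightest kept probe. Comparisons used limma 3.58.1 (R 4.3.3) with all 9 arrays in 1 model, two-sided, with Benjamini-Hochberg adjustment over the probes kept and a threshold of 0.05. An exact permutation test of 3 against 3 arrays cannot go below 0.1.

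For a group below background on all its arrays, a fold is a lower bound against the dimmest detected signal of its arrays. Values called background-subtracted come from neqc. Summed marker signals are normalized linear values over measured genes. Members given in full passed in both HFD against ND and LU against HFD or were among the 5 largest changes of their family in either, and of each other list the 3 largest passing changes per comparison were named. Members and lists were chosen with earlier results of these data known. The fit was tested on simulated data. Alternatives were neqc, median scaling, the authors' log2 table, other filters, probes, tests and thresholds, the replicate number as a block and leaving out each array. Promoter sequences are from RefSeq (GRCm38.p6), and the alignment of probes to a genome was not used here.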

Additional observations from a re-analysis of the deposited data

How the results depend on the processing

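The 27 genes in the 3 comparisons were recomputed under each alternative, except that Itgad, Itgax and Itgam were left out by a filter of detection on all 9 arrays, and Itgam by a detection p under 0.01 on 3 arrays. The counts of genes called moved by over 1.5 times mainly under stricter thresholds and other tests. Among these tests was a rank product, the kind of test that the methods name for the arrays. It was used here at an adjusted p under 0.05, the threshold of the main fit. In the order HFD against ND, then LU against HFD, then LU against ND, a fold change of at least 1.5 left 4 (4 higher, 0 lower), 2 (0 and 2) and 4 (4 and 0) genes called, and a simplified rank product, over same-numbered arrays with a gamma approximation, left 4 (4 and 0), 2 (0 and 2) and 5 (4 and 1). The genes kept by the rank product were Itgad, Itgax, Itgb2 and Lamb3 in HFD against ND, Itgad and Lama2 in LU against HFD, and those of the first comparison with Itga11 in LU against ND. The methods' t-test after adjustment called 9 (2 higher, 7 lower) in LU against HFD, 9 (7 and 2) in HFD against ND and 1 lower in LU against ND, and unadjusted it called 3 lower in HFD against ND. An adjusted p under 0.01 gave 10 in LU against HFD (3 higher, 7 lower), 3 lower in HFD against ND and 2 lower in LU against ND. Genes lower in HFD against ND were 3 with neqc and 3 in a fit of the compared groups alone. Genes lower in LU against ND were 3 with neqc, with median scaling, with the mean of a gene's probes and with the dimmest probe. Single calls lost were those of Itga3, Lama1, Lama2 and Lamb2 in HFD against ND with neqc and with the compared groups alone, of Itgb7 and Lamb3 in LU against HFD with neqc and with median scaling, and of Itga9 and Lama4 in LU against ND with these 2 settings. Median scaling also lost Itga1 in LU against HFD and Lama5 in HFD against ND. The cause was not tested.

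Leaving out each array gave 15 to 18 genes called in HFD against ND (11 to 13 higher, 3 to 6 lower), 11 to 17 in LU against HFD (4 to 6 higher, 7 to 12 lower) and 9 to 13 in LU against ND (7 to 9 higher, 2 to 5 lower). The lowest counts of lower genes came without ND replicate 1 in HFD against ND (3), without HFD replicate 2, LU replicate 1 or LU replicate 2 in LU against HFD (7) and without LU replicate 2 in LU against ND (2).

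No called value changed sign except with another probe, where Itgav in LU against ND was -0.04 and Itgb1bp1 in LU against ND 0.08 with the dimmest probe. Values not called that changed sign were Itgav in LU against HFD (-0.34 with the dimmest probe and -0.13 with the mean of probes), Itga6 in HFD against ND (-0.13 and -0.05 in these settings and -0.01 with median scaling), Itgae in LU against ND (-0.01 with the dimmest probe) and Itgb4 in LU against HFD (0.05 with median scaling). Leaving out arrays, uncalled values that crossed or reached 0 ranged, in HFD against ND, from -0.08 to 0.02 for Itga11, -0.04 to 0.13 for Itga6, 0 to 0.20 for Itgb6 and -0.14 to 0.04 for Lamb1. In LU against HFD they ranged from -0.14 to 0.01 for Itga7, -0.06 to 0.04 for Itgb4, -0.06 to 0 for Itgb6 and -0.05 to 0.05 for Lama1. In LU against ND they ranged from -0.01 to 0.14 for Itga1, -0.09 to 0.03 for Itga3, -0.01 to 0.12 for Itgae, -0.03 to 0.17 for Itgb6, -0.02 to 0.15 for Itgb7 and -0.05 to 0.13 for Lamb1.

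With the replicate number as a block, 16 genes were called in LU against HFD, 11 in LU against ND, where the Lama4 call was lost, and 17 in HFD against ND, where those of Itga3 and Lama1 were lost. Same-numbered arrays had correlations of -0.10 to 0.09 in their deviations from the group means, and 3 of 9 arrays correlated best with their own number, so the numbers were not taken to pair the samples. Median scaling moved the share of calls over all named genes that were higher to 63.8% in LU against HFD, compared with 51.9%. Genes near background, such as Itgam and Lama1, are limited by their low signal.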
